A study of Mus musculus with 8 samples.

Results

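The genes described here are 32 interferon-stimulated genes of the mouse, taken as a list of symbols that covers the sensors of viral RNA and DNA, the transcription factors of the interferon response, and its antiviral and GTPase effectors. The array carried a probe for 31 of the 32, and all 31 passed the filter on dim probes and entered the fit, among 21638 genes in all. No probe was found for Xaf1, which is not analysed here. The 31 genes had 48 probes, of which 43 passed the filter, and the brightest passing probe stood for each gene.

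The study set 4 colon tumors against 4 samples of normal colon on 1-colour Agilent expression arrays, from C57BL/6 mice whose age is labelled only as adult. The tumors were adenomas with the genotype label Tcf4Het ApcHet, and the normal colon had the label TCF4WT ApcHet. All 8 samples were therefore heterozygous at Apc by their labels, and the protocol names ApcMin, a mutant allele that makes mice prone to intestinal adenomas. The protocol speaks of RNA from the distal 2.5 cm of the colon of littermates. No treatment is labelled. Tumor tissue and the heterozygous Tcf4 genotype came together, so the effect of one and of the other cannot be told apart, and the labels do not say which gene the name Tcf4 stands for.

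Interferons are secreted proteins that cells release on sensing a virus, a bacterium or misplaced nucleic acid. Type I interferons bind the receptor chains Ifnar1 and Ifnar2, and the Janus kinases attached to them set off a complex with Stat2 and Irf9 that binds the interferon-stimulated response element, or ISRE, in the promoters of target genes. Interferon gamma acts through another receptor and on another promoter element, the gamma-activated site, or GAS. In the gut, interferon signalling takes part in the defence of the epithelium and in the activity of immune cells in the tissue beneath it.

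Promoters of some of the genes on which the results turn are shown first. RefSeq promoter windows on GRCm38.p6, each with 250 bases before and 50 bases after the start of the gene, were matched by symbol for 24 of the 32 genes, Usp18 and Iigp1 not among them. The ISRE was searched on both strands as GAAA, any 2 bases and GAAAC, and 12 of the 24 windows held at least 1 match, against 0.944% of the 27025 genes with a window. A shorter core that ends in GAAA without the last C, which every ISRE match contains, was present in 15 of the 24, against 3.99% of all genes. The GAS was searched as TTCNNNGAA, which reads the same on both strands, and was present in 6 of the 24, against 9.55% of all genes. A match is a description of letters and not evidence of binding.

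The windows of Ifih1 (chr2:62646206-62646505, minus strand) and Oasl1 (chr5:114922990-114923289, plus strand) are shown because these genes fell in the tumors. The window of Bst2 (chr8:71537423-71537722, minus strand) is shown because its groups did not overlap, and those of Isg15 (chr4:156200769-156201068, minus strand) and Ifit1 (chr19:34640639-34640938, plus strand) as classical targets. Each is written 5′ to 3′ on the strand of its gene, and capitals mark the ISRE matches.
Ifih1: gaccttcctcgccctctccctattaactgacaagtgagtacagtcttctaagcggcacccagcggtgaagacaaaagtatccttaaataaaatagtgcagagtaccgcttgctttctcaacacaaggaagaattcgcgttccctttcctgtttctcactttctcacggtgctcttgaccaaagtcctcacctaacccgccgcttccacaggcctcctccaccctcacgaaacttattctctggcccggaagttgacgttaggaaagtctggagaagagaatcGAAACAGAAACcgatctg
Oasl1: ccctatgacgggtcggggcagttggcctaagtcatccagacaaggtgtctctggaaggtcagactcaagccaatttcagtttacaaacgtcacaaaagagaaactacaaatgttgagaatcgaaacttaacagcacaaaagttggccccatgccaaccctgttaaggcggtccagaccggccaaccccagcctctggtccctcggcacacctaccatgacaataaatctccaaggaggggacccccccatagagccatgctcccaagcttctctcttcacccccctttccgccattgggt
Bst2: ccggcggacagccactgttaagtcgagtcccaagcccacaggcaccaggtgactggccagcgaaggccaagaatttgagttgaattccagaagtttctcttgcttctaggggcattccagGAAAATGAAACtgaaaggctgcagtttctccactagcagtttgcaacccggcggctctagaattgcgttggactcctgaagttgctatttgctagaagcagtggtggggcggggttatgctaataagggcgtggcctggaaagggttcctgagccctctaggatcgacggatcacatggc
Isg15: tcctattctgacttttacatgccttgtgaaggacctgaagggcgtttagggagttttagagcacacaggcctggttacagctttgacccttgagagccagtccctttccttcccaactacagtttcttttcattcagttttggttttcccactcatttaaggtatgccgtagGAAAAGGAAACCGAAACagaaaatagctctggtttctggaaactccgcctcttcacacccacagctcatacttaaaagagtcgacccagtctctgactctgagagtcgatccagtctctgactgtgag
Ifit1: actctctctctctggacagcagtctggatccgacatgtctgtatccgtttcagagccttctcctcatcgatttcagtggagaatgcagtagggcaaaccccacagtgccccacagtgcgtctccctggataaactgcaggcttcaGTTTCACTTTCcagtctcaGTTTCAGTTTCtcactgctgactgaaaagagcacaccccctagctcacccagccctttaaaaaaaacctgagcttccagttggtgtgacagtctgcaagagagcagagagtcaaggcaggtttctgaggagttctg

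The Ifih1 match began 33 bases after the start of the gene. Bst2 had a match that began 130 bases before the start, and it overlaps a GAS match that began 136 bases before it. The Isg15 window held 2 overlapping matches, which began 78 and 72 bases before the start. The Ifit1 window held 2 matches on the opposite strand, whose outer ends lay 105 and 86 bases before the start. The Oasl1 window held neither motif, so these letters are not in those 300 bases.

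All values are log2 signals as the authors normalised them, and differences are tumor minus normal. Levels of different genes come from different probes and are not compared with each other. Detection on these arrays ended near a log2 value of 5.59, the median over 4 traced arrays of the level under which 95% of their dim probes lay. That level was 4.50 for tumor 1, 5.35 for tumor 2, 7.70 for normal 1 and 5.82 for normal 2, so background reached higher on the arrays of these normals than of these tumors. The normal sample numbered 3 correlated at 0.947 to 0.966 with the tumors over all genes, and at 0.872 to 0.941 with the other normals. Normal 1 lay about as close to the tumors, at 0.925 to 0.956, as to the other normals, at 0.938 to 0.941. Only normals 2 and 4 were closely alike, at 0.987, so the normals were not 1 even group apart from normal 3. Many of the genes and counts are given with and without normal 3. The value table and the scanner files disagreed on which array belongs to which sample. Of the 8 columns of the table, 4 traced to a scanner file. The column of tumor 1 traced to its own file, those of normals 1 and 2 to files of other normals, and that of tumor 2 to a file labelled normal. The columns were used by their own labels throughout, and the direction of each difference rests on those labels.

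Tumors and normal colon differed in 3 of the 31 interferon-stimulated genes by limma at an adjusted p under 0.05. Usp18 rose in the tumors, while Ifih1 and Oasl1 fell. Of all 21638 genes, 14.5% passed the same test, 7.00% as higher and 7.54% as lower in the tumors. The share of the 31 genes, 9.68%, was below that background, so the list was called no more often than the genes of the array at large. The median difference over the 31 genes was 0.05, with a range of -1.37 to 2.90, beside a median of 0.15 over all genes. The differences were above 0 in 16 genes and below 0 in 15. RNA came from whole tissue, so fewer cells of a type and less RNA per cell cannot be told apart in any of these values.

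**Figure D1:**
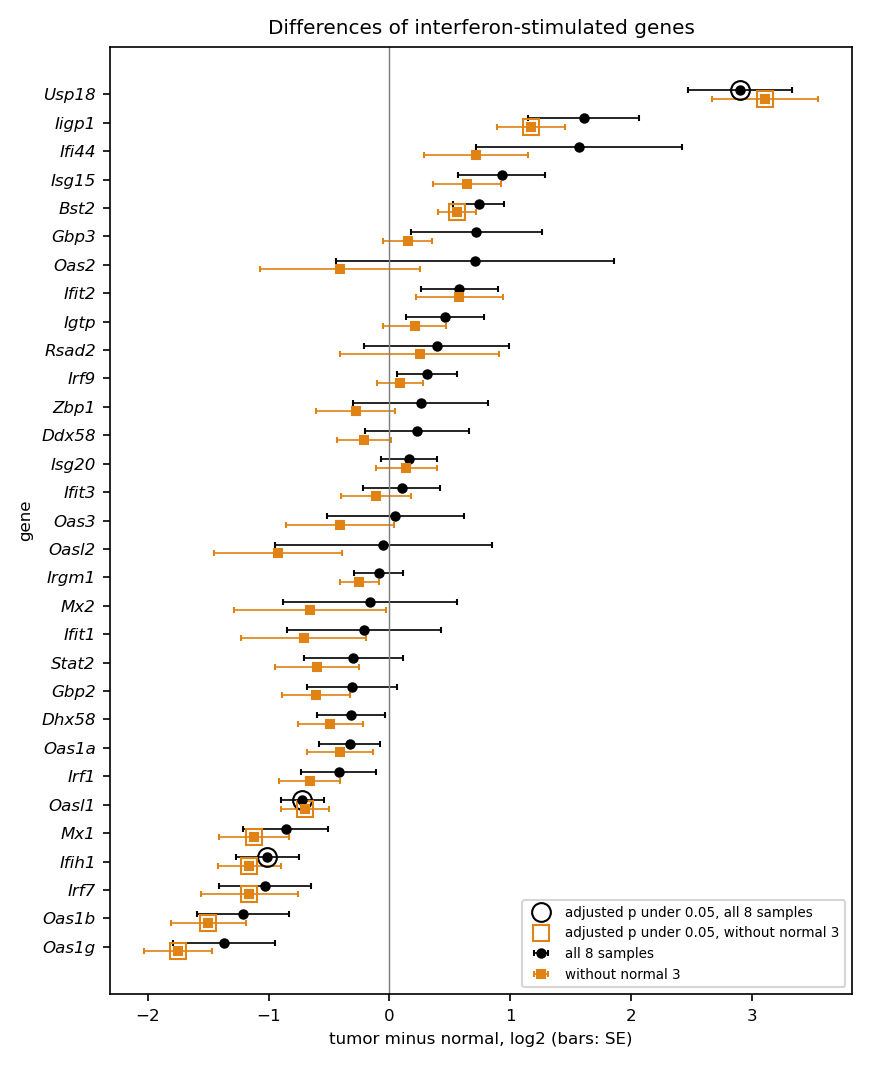
Tumor minus normal difference in log2 value (horizontal axis) for each of the 31 interferon-stimulated genes, with all 8 samples and without normal sample 3. Points are log2 differences with bars of 1 SE, and open marks are genes with an adjusted p under 0.05. Usp18 lies at 2.90, far to the right of the other genes, while most of the Oas family, the sensors and the transcription factors lie near or below 0.

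Leaving out normal sample 3 gave 9 called genes of the 31, or 29.0%, beside 51.5% of all genes, of which 31.7% were higher and 19.8% lower in the tumors, so the share again lay below the background. In that fit Usp18, Bst2 and Iigp1 rose, and Oas1g, Ifih1, Irf7, Oasl1, Oas1b and Mx1 fell. The median difference of the 31 genes was then -0.41, beside 0.17 over all genes. With the sample pairs as a block, only Usp18 passed among the 31, beside 8.64% of all genes, 3.60% as higher and 5.03% as lower. Without tumor 2, whose column traced to a file labelled normal, Usp18 passed (2.65, adjusted p = 0.0496), and Ifih1 (-0.82, adjusted p = 0.0990) and Oasl1 (-0.66, adjusted p = 0.109) did not. Tumors and normals did not overlap in 5 of the 31 genes, or 16.1%, beside 23.8% of all genes, with 11.9% on each side, and these were Usp18, Bst2 and Iigp1 on the higher side and Ifih1 and Oasl1 on the lower side.

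Usp18 is the protease that removes Isg15 from proteins and that also binds the type I interferon receptor and dampens its signal. Its log2 values were 12.33, 13.50, 13.31 and 11.94 in the tumors, against 9.14, 9.77, 10.50 and 10.08 in normal colon. Every tumor lay above every normal sample, with a gap of more than 1 log2 unit between the lowest tumor and the highest normal. The means were 12.77 ± 0.75 in tumors and 9.87 ± 0.58 in normal colon (SD, n = 4 each), a difference of 2.90 ± 0.43 (SE) or 7.45-fold, with an adjusted p of 0.0151 by limma. Pairs of like-numbered samples differed by 3.19, 3.73, 2.81 and 1.86. Any pairing would give positive differences here, because the groups did not overlap. Within pair 1 and within pair 2, the arrays shared a scan date in the traced scanner files. The adjusted p was 0.0594 without tumor 3 and 0.0517 without normal 4, with differences of 2.72 and 2.97, and it stayed under the threshold when any other sample was left out. The probe lies at chr6:121236114-121236173 of mm8, by the array annotation.

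Isg15, the ubiquitin-like protein that Usp18 takes off its targets, did not pass the test. Its values were 10.96, 10.31, 11.15 and 11.20 in tumors, against 9.86, 10.60, 9.11 and 10.33 in normal colon. The groups overlapped, because tumor 2 lay just below normals 2 and 4. The difference was 0.93 ± 0.36 (SE), with an adjusted p of 0.118 by limma, and 0.64 with an adjusted p of 0.0907 without normal sample 3. The array annotation places this probe on chromosome 17 of mm8, whereas RefSeq has the gene on chromosome 4, and the name follows the accession of the probe.

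Among the 4 sensors, Ifih1 fell and the other 3 did not pass. Ifih1 encodes MDA5, the cytoplasmic receptor for long double-stranded RNA. Its values were 13.02, 12.39, 13.01 and 13.37 in tumors, against 13.81, 14.21, 13.51 and 14.29 in normal colon, and the groups did not overlap. The means were 12.95 ± 0.41 in tumors and 13.95 ± 0.36 in normal colon (SD, n = 4 each), a difference of -1.01 ± 0.26 (SE) or 2.01-fold lower, with an adjusted p of 0.0439 by limma. The call was lost with the pairs as a block (adjusted p = 0.0699) and on leaving out any sample other than normal 3, with adjusted p up to 0.117 and differences of -1.16 to -0.82. Its second probe also lay lower in tumors, by -1.92, with an adjusted p of 0.0803 over all probes by limma.

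The other sensors lay close to 0. Ddx58, which encodes the RNA sensor RIG-I, differed by 0.23 ± 0.43 (SE), with other kept probes at 0.20 and -0.03, and Zbp1, a sensor of Z-form nucleic acid, by 0.26 ± 0.56. Dhx58, which encodes LGP2, a regulator of the other RNA helicase sensors, differed by -0.32 ± 0.28. In Zbp1 the tumors spanned 11.43 to 12.80 and the normals 10.38 to 12.72, and normal 3 was the lowest of all 8 samples. Ddx58 had the same ordering at its lower end, at 7.87 in normal 3 beside 8.97 to 9.70 in tumors.

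None of the 4 transcription factors passed with all samples. Irf7, the factor that amplifies type I interferon production, had values of 11.01, 10.39, 11.24 and 12.21 in tumors, against 12.30, 12.19, 11.86 and 12.62 in normal colon. Only tumor 4 reached into the range of the normals. The difference was -1.03 ± 0.38 (SE), with an adjusted p of 0.105 by limma, which became 0.0471 without normal 3 and 0.0370 without tumor 4. Stat2 and Irf9, 2 parts of the ISRE-binding complex, differed by -0.30 ± 0.41 and 0.31 ± 0.25, and the other kept probe of Irf9 lay at -0.31. Irf1, which interferon gamma induces strongly, differed by -0.42 ± 0.31, and its tumors at 15.27 to 15.76 lay within the range of the normals at 15.16 to 16.44. The low end of that range was normal 3, and without it the difference was -0.66 (adjusted p = 0.0601 by limma). The other kept probe of Irf1 lay at -0.96 with all samples, with an adjusted p of 0.14 over all probes by limma.

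The 2′,5′-oligoadenylate synthetase family makes the second messenger that activates RNase L, except for some members, such as Oasl1, that lack this activity. Of its 7 measured members Oasl1 fell and the other 6 did not pass. Oasl1, known in mice to restrain the translation of Irf7, had values of 11.49, 11.38, 11.36 and 11.99 in tumors, against 12.08, 12.47, 12.33 and 12.20 in normal colon. The groups did not overlap, though tumor 4 lay just under normal 1. The means were 11.55 ± 0.30 in tumors and 12.27 ± 0.17 in normal colon (SD, n = 4 each), a difference of -0.72 ± 0.18 (SE) or 1.64-fold lower, with an adjusted p of 0.0404 by limma. The call was lost with the pairs as a block (adjusted p = 0.0799) and held on leaving out tumor 4 or normal 3 but no other sample, with adjusted p up to 0.119 and differences of -0.86 to -0.65.

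Oas1g and Oas1b were the members with the most negative differences. Oas1g had values of 5.38, 5.91, 6.12 and 6.20 in tumors, against 7.42, 7.37, 6.13 and 8.16 in normal colon. The tumors lay near the detection limit, and tumor 4 lay just above normal 3. Its difference was -1.37 ± 0.42 (SE), with an adjusted p of 0.0669 by limma, and -1.75 with an adjusted p of 0.00574 without normal 3. Oas1b, a catalytically inactive relative known for its part in flavivirus resistance, had values of 6.47, 7.06, 7.32 and 7.81 in tumors, against 8.65, 8.54, 7.49 and 8.82 in normal colon. It overlapped only through tumor 4 and normal 3, with a difference of -1.21 ± 0.38 and an adjusted p of 0.0715, which was 0.0112 without normal 3. The Oas1 genes are close copies of each other, so probes could share signal between them, and the values of single copies are uncertain.

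Oas2, Oas3 and Oasl2 varied more among the normals than between the groups. Oasl2 had values of 11.48, 11.37, 11.87 and 12.93 in tumors, against 11.88, 12.95, 9.33 and 13.68 in normal colon, and a difference of -0.05 ± 0.90 (SE). Oas2 spanned 7.42 to 9.34 in tumors and 4.46 to 9.95 in normals, with its lowest value, under the detection limit, in normal 3. Oas3 differed by 0.05 ± 0.57, and its kept probes did not share a sign. Oas1a, an active synthetase, differed by -0.33 ± 0.25.

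**Figure D2:**
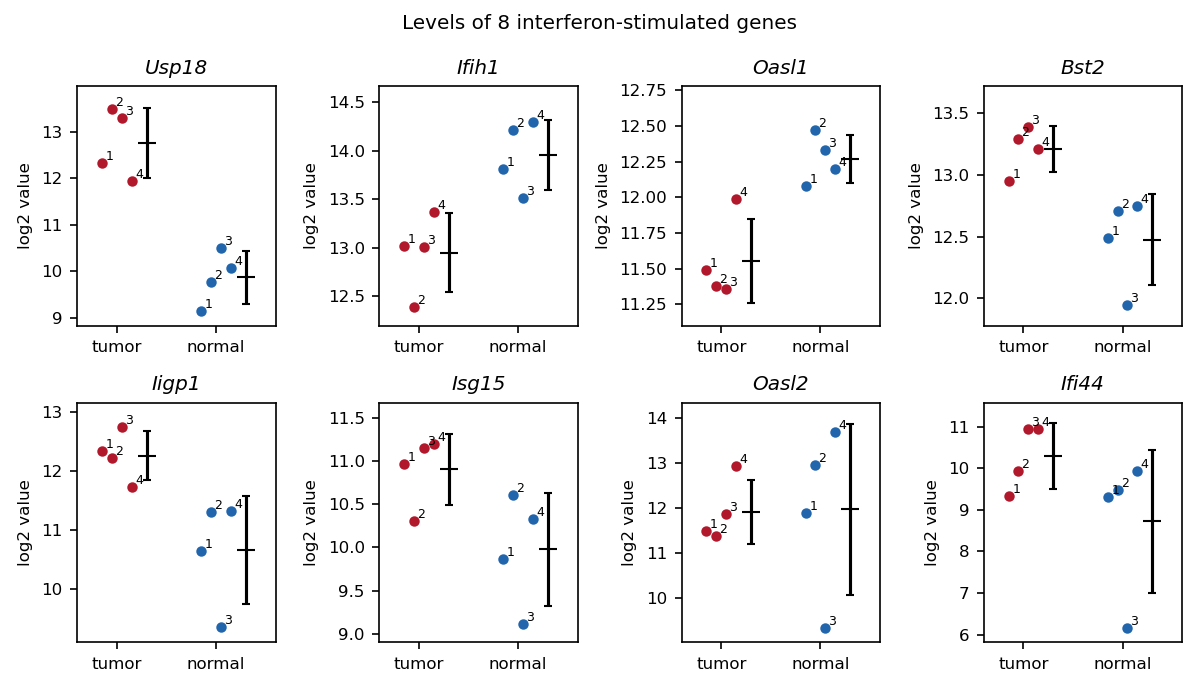
Log2 value of 8 of the interferon-stimulated genes in each tumor (left) and each normal sample (right), numbered by replicate, with the mean and SD of each group as bars. Usp18 separates the groups upward, Ifih1 and Oasl1 downward, and normal sample 3 is the low point of several other genes.

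The Ifit proteins bind viral RNA and block its translation, and the Mx proteins are dynamin-like GTPases that trap viral components. None of these 5 genes passed with all samples. Ifit1 spanned 10.24 to 11.20 in tumors and 9.40 to 12.35 in normals, so the tumors lay inside the range of the normals. Ifit2 differed by 0.58 ± 0.32 (SE) and Ifit3 by 0.10 ± 0.32. Mx1 had values of 6.55, 6.18, 7.09 and 7.05 in tumors, against 7.38, 8.04, 6.79 and 8.09 in normal colon. Its difference was -0.86 ± 0.35, with an adjusted p of 0.136 by limma, which was 0.0211 without normal 3, the only normal that lay among the tumors. The other kept probe of Mx1 lay at -0.19, with an adjusted p of 0.528 over all probes by limma. On that probe normal 3, at 7.01, was the highest normal, so the size of the Mx1 difference depends on the probe. Mx2 differed by -0.16 ± 0.72. On the traced array of normal 1, the probes of Ifit2, Oas1g, Oas2, Oas3, Mx1 and Mx2 were not well above background, so the values of that sample in these genes are weakly measured.

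None of the 4 remaining antiviral effectors passed with all samples. Bst2, or tetherin, holds budding virus particles on the cell surface. Its values were 12.95, 13.29, 13.39 and 13.21 in tumors, against 12.49, 12.71, 11.95 and 12.75 in normal colon, and every tumor lay above every normal. The difference was 0.74 ± 0.21 (SE), with an adjusted p of 0.0544 by limma, and 0.56 with an adjusted p of 0.0240 without normal 3. Ifi44, an interferon-induced protein, had values of 9.33, 9.94, 10.93 and 10.95 in tumors, against 9.31, 9.47, 6.16 and 9.94 in normal colon. Its difference of 1.57 ± 0.85 was 0.72 without normal 3, and its adjusted p was 0.208 and 0.201 in these fits. Rsad2, or viperin, ranged from 10.33 to 13.19 in tumors and from 10.68 to 11.96 in normals. The difference of Rsad2 was 0.39 with this probe and -0.40 and -0.93 with its other kept probes, so its sign depends on the probe. Isg20, an RNA exonuclease, differed by 0.16 ± 0.23.

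The Gbp and Irg families are GTPases that interferon gamma induces and that attack the vacuoles of intracellular microbes. None of the 5 measured members passed with all samples. Iigp1 had values of 12.34, 12.22, 12.75 and 11.74 in tumors, against 10.65, 11.30, 9.36 and 11.32 in normal colon, with no overlap. Its difference was 1.61 ± 0.46 (SE) or 3.04-fold, with an adjusted p of 0.0552 by limma, and 1.17 with an adjusted p of 0.0175 without normal 3. Gbp3 was nearly level among the tumors at 11.70 to 11.89, whereas the normals ran from 9.35 in normal 3 to 11.97. Igtp, Irgm1 and Gbp2 differed by 0.46 ± 0.32, -0.09 ± 0.20 and -0.31 ± 0.37.

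Much of the spread in these genes lay among the normal samples. Normal 3 was the lowest of the 4 normals in 26 of the 31 genes, or 83.9%, while it was the lowest in 33.9% of all genes. It was the lowest of all 8 samples in 18 of the 31. Normal 4 was the highest normal in 24 of the 31, against 20.4% of all genes. Averaged over the 31 genes, the log2 level was 10.73, 10.88, 11.18 and 11.37 in the tumors, and 10.80, 11.37, 9.98 and 11.58 in normals 1 to 4. The tumors thus lay inside the range of the normals, whose lower end was normal 3. Without normal 3, tumor 1 lay just under the lowest normal, at 10.73 beside 10.80. The SD among normals exceeded that among tumors in 77.4% of the 31 genes, close to the 78.0% of all genes.

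**Figure D3:**
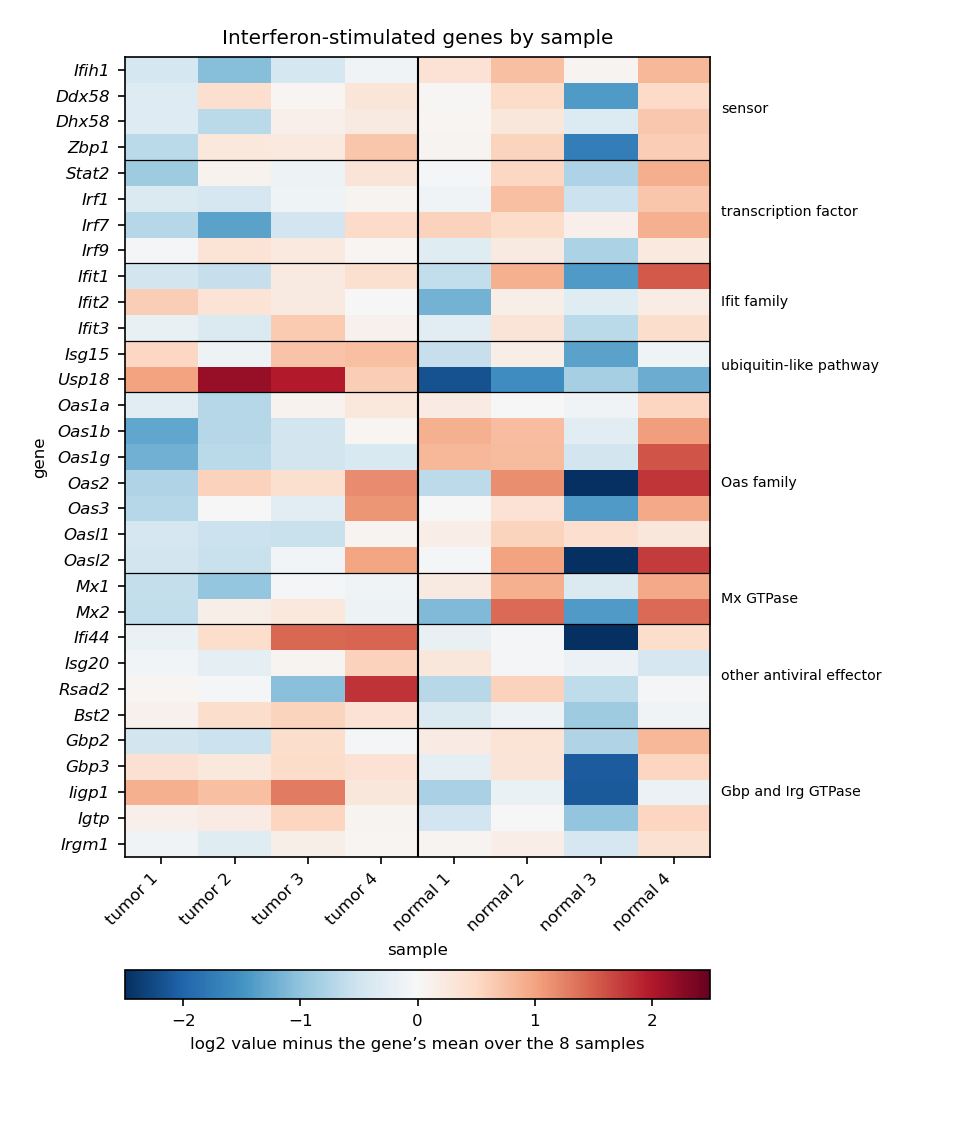
Log2 value of each of the 31 interferon-stimulated genes in each sample, as the deviation from the mean of the gene over the 8 samples, with tumors on the left, normals on the right and genes grouped by role. The colour scale stops at its printed limits, and the column of normal sample 3 is the lowest of the normals in 26 genes.

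Markers of immune cells were also uneven among the samples. The mean log2 level of 4 pan-leukocyte markers was 12.62 to 12.84 in the tumors, against 10.19 in normal 3 and 11.90 to 12.39 in the other normals. The mean of 7 B and plasma cell markers was 9.68 in normal 3, against 11.13 to 11.65 in the other normals. Normal 3 was not low in every immune list. It was the highest normal for neutrophil markers, at 10.51 beside 7.31 to 9.11 in the other normals. The same held for T and NK cell markers, at 8.93 beside 8.16 to 8.71, and for dendritic cell markers, at 9.41 beside 8.17 to 8.98. For macrophage markers it was the lowest normal, at 10.76, and for plasmacytoid dendritic cell markers it lay among the others, at 10.92. Outside the immune lists, normal 3 was the highest sample for 7 small intestine markers, at 12.17 beside 9.56 to 10.62 in the other normals. It was the lowest sample for 5 smooth muscle markers, at 14.41 beside 15.41 to 16.62 in the other normals. In the tumors 8 of 12 macrophage markers, 6 of 7 neutrophil markers and 4 of 12 T and NK cell markers rose, with macrophage means of 12.53 to 12.69 in tumors and 10.76 to 11.79 in normals. None of the 8 markers of plasmacytoid dendritic cells, the cell type known for making much type I interferon, passed the test, and Siglech among them averaged 5.63 in tumors and 5.47 in normals, near the detection limit. Of the colonocyte markers 5 of 6 fell, as did 5 of 9 distal colon markers, and none of 7 general epithelial markers passed. These marker counts stand beside 7.00% of all genes called higher and 7.54% called lower. With the pairs as a block, 7 macrophage, 5 neutrophil and 4 T and NK cell markers rose, and 3 colonocyte and 2 distal colon markers fell. That fit called 3.60% of all genes higher and 5.03% lower. The part of these cell types in the interferon-stimulated genes was not tested.

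**Figure D4:**
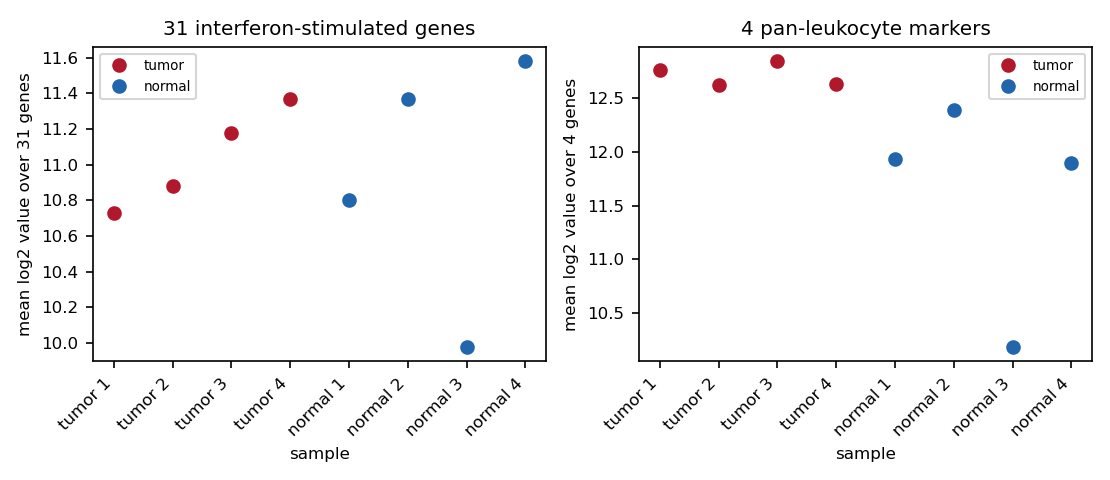
Mean log2 value per sample of the 31 interferon-stimulated genes (left) and of 4 pan-leukocyte markers (right), with the tumors to the left of the normals. Normal sample 3 is the lowest sample on each side, at 9.98 and 10.19, and the vertical axes do not start at 0.

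The interferons themselves were measured poorly. Of 21 interferon genes listed, 14 had a probe and 10 passed the filter, and none was called by limma with all samples, where 0 of the 10 also had an unadjusted p under 0.05. Without normal 3, 9 of the 10 rose, in a fit that called 31.7% of all genes higher. These were Ifna1, Ifna2, Ifna4, Ifna9, Ifna12, Ifna13, Ifnab, Ifnz and the type III gene Ifnl3, and Ifna1, Ifna2, Ifna4 and Ifnl3 among them were not well above background on the traced arrays of normals 1 and 2, so their level in normal colon is weakly measured. The other 5 differed by 1.12 to 1.99 in that fit. With all samples, the adjusted p of the 9 genes lay between 0.190 and 0.210. In Ifna12 the tumor mean was 9.69 and normal 3 stood at 10.17, and in Ifna9 the tumor mean was 9.62 and normal 3 stood at 9.93. Ifng, the gene of interferon gamma, spanned 5.94 to 6.95 in tumors and 6.03 to 6.92 in normal colon. Its difference was 0.05 ± 0.29 (SE), with an adjusted p of 0.912 by limma. The probes of Ifng and of Cxcl9 were not well above background on the traced array of normal 1. Ifnb1 lay under the detection limit in all 4 tumors and in 3 of 4 normals, so no fold is given. Copies of the alpha interferon genes are nearly identical, and their probes are uncertain.

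Of the 10 genes of interferon receptors and Janus kinases, 2 rose and none fell, beside 7.00% of all genes called higher and 7.54% lower. Ifnar2, the high-affinity chain of the type I receptor, had values of 11.99, 12.44, 12.25 and 12.10 in tumors, against 10.78, 10.85, 10.82 and 10.47 in normal colon. The groups lay more than 1 log2 unit apart. The difference was 1.46 ± 0.16 (SE) or 2.76-fold, with an adjusted p of 0.0112 by limma, and 0.0548 without tumor 3. Ifnar1, the other chain, differed by 0.43 ± 0.11, with an adjusted p of 0.0442 that was lost with the block (adjusted p = 0.0867) and on leaving out any sample other than normal 3.

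Among 15 genes of nucleic acid sensing upstream of interferon, Sting1 rose and Ikbke fell. The same fit called 7.00% of all genes higher and 7.54% lower, so 1 gene each way is close to that background. Sting1, the adaptor that relays the detection of cytoplasmic DNA, had values of 15.00, 15.87, 15.36 and 14.50 in tumors, against 11.93, 12.32, 13.63 and 11.97 in normal colon. The difference was 2.72 ± 0.45 (SE) or 6.59-fold, with an adjusted p of 0.0172 by limma, and its adjusted p reached 0.0642 when 1 of tumor 2, tumor 3, normal 1 or normal 4 was left out. Ikbke, a kinase that phosphorylates interferon regulatory factors, differed by -0.74 ± 0.17, with an adjusted p of 0.0303, lost with the block (adjusted p = 0.0627). Leaving out any sample other than tumor 4 or normal 3 also lost it, with adjusted p up to 0.0873.

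Of 11 genes that restrain interferon signalling, Socs1 and Socs3 rose and Pias3 fell, beside 7.00% of all genes called higher and 7.54% lower. Socs1 and Socs3 encode inhibitors of cytokine receptor signalling, and Pias3 an inhibitor of STAT proteins. Socs1 differed by 1.39 ± 0.25 (SE, adjusted p = 0.0199) and Socs3 by 2.40 ± 0.50 (SE, adjusted p = 0.0248), without overlap in either gene. Pias3 differed by -0.92 ± 0.22 (adjusted p = 0.0351), and that call was lost with the block (adjusted p = 0.0590). Each of these calls was also lost on leaving out any 1 of tumors 1 to 3, normal 1 or normal 4, with adjusted p up to 0.0683 for Socs1, 0.0798 for Socs3 and 0.0982 for Pias3. Socs1 and Pias3 were lost without normal 2 as well.

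Of 68 other interferon-induced genes, 9 rose and 5 fell, and their median difference was -0.03, beside 0.15 over all genes. The same fit called 7.00% of all genes higher and 7.54% lower. With the pairs as a block 6 rose and 2 fell, beside 3.60% and 5.03% of all genes. Without normal 3, 13 rose and 15 fell, beside 31.7% and 19.8% of all genes. Cxcl9, a chemokine that interferon gamma induces and that draws T cells, had values of 10.15, 10.28, 10.91 and 9.46 in tumors, against 7.73, 7.93, 7.59 and 7.69 in normal colon. The difference was 2.47 ± 0.29 (SE) or 5.53-fold, with an adjusted p of 0.0123 by limma, which stayed under the threshold on leaving out each sample in turn. Ly6e, a membrane protein that restricts coronaviruses, differed by 1.32 ± 0.16 and Ifi47, an Irg GTPase, by 1.29 ± 0.17. Their adjusted p were 0.0123 and 0.0139, and on leaving out 1 sample in turn both calls were lost without tumor 3 only, at 0.0549 and 0.0558. Ifitm2, of a family that blocks virus entry, differed by 1.53 ± 0.29 (adjusted p = 0.0206), a call that was lost on leaving out any sample other than tumor 4 or normal 3, with adjusted p up to 0.0696. The genes that fell were Parp12, Gvin1, Tdrd7, Oas1d and Oas1e, of which Parp12, Tdrd7 and Oas1e did not pass with the block (adjusted p = 0.0555, 0.0697 and 0.0675).

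**Figure D5:**
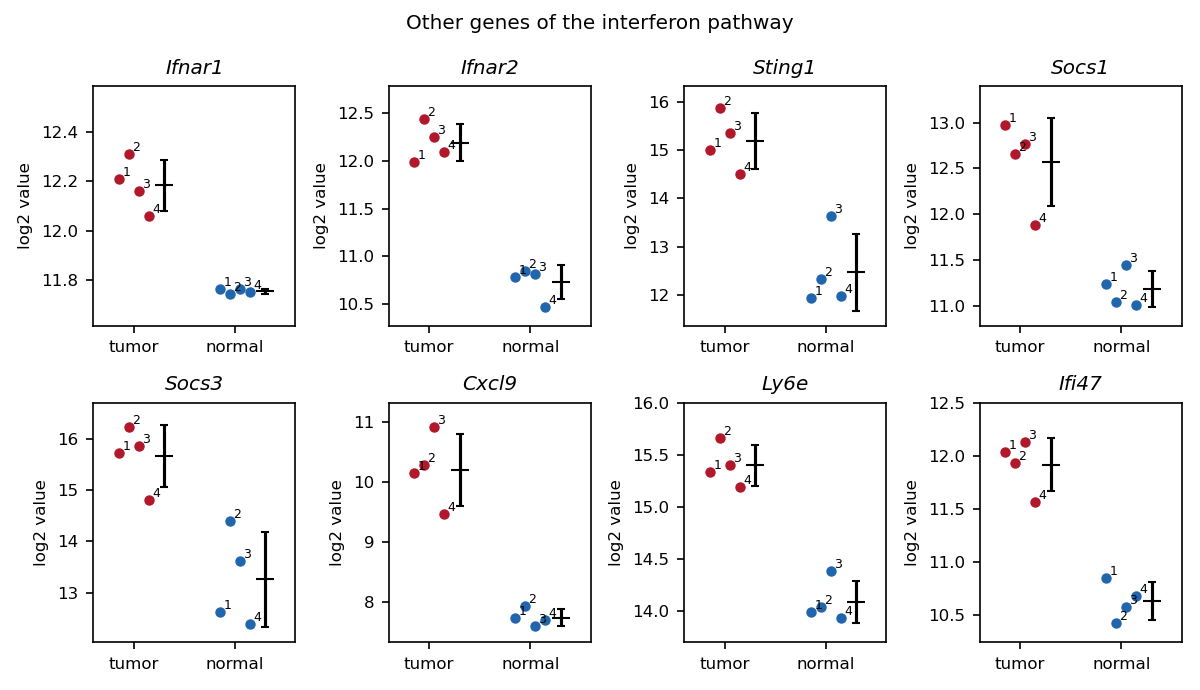
Log2 value of 8 other genes of the interferon pathway in each tumor (left) and each normal sample (right), numbered by replicate, with the mean and SD of each group as bars. The 8 were picked from genes called higher without overlap, so the tumors lie above the normals in all 8 by that choice. Genes that fell are not shown.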

How the data were processed

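Total RNA of 4 colon tumors and 4 normal colons was hybridised to 1-colour Agilent arrays (design 014868). The scanner files hold intensity values from Agilent Feature Extraction 9.5.1.1 per the file headers, while the submitters' processing notes name version 10.1.1.1. The deposited value table holds log2 values that share 1 distribution across columns, which the authors had normalised before deposit. It was used for every result, by column label, because scanner files and columns disagreed on sample identity. Probes were named through accession, symbol or synonym of RefSeq GRCm38.p6, and otherwise kept the name in the file. A probe was kept at or above 5.59 on at least 4 of 8 arrays, and the brightest kept probe stood for a gene. To set that limit, the 95th percentile of the probes marked by the scanner software as dim was taken in each of the 4 traceable columns, and the median of the 4 was used.

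Tumor and normal columns were fitted gene by gene by limma (version 3.58.1, R 4.3.3), using its moderated 2-sided statistic. P-values were adjusted after Benjamini and Hochberg across 21638 genes, with a threshold of 0.05. The design text calls the samples independent, and the number of arrays limits the precision. Like-numbered tumor and normal samples deviated together from their group means, with correlations of 0.24, 0.36, 0.53 and 0.36. The numbers were taken as pairs on that ground alone. The fit with the pairs as a block is given where it changed the call of a gene described with its values or a count. Some unlike numbers correlated as well, at 0.28 for tumor 1 with normal 3, 0.35 for tumor 2 with normal 4 and 0.38 for tumor 4 with normal 2. The correlations therefore do not settle which samples belong together, and the pairing is uncertain. The genes, the lists and the tests were chosen with earlier results of these data known. All 32 genes are named, and of each other list up to 4 genes of lowest p among those called without overlap. Alternatives covered the filter, the choice of probe, the scaling, the limma variant, the block, each sample left out, and 3 settings on the scanner files.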

Additional observations from a re-analysis of the deposited data

Results flagged for a closer look

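Ifi44 in normal sample 3 lay far from the other normals. Its log2 value there was 6.16, against 9.31 to 9.94 in the other 3 normals, and the gap made up 0.83 of the whole range of the group. Among the 62 groups examined, 31 genes in each tissue, this was the 1 sample that stood out so far. Chance alone marks about 1 in 20 groups, so 1 flag among 62 is no more than chance would give. The same sample had the lowest pan-leukocyte marker level, 10.19. Among the normals it had the highest levels of neutrophil, T and NK cell and dendritic cell markers. The part of these levels in Ifi44 was not tested.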

How the results depend on the processing

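Usp18, Ifih1 and Oasl1 kept their direction under every alternative run on the value table. The 3 settings on the scanner files, taken by their own labels, were as filed, with the scan date as a block, and with normexp. Under them Usp18 differed by 0.56, 0.56 and 0.44 (SE 0.96, 1.01 and 0.85). Ifih1 differed by 0.11, 0.11 and 0.11 and Oasl1 by 0.41, 0.41 and 0.42. No gene of 21686 passed (0 in each), and 433, 326 and 512 genes had an unadjusted p under 0.05 by limma. Of the 31 differences, 14 turned their sign under each of these settings. Counts of called genes, higher and lower among the 31, were 3 higher with the stricter filter and 3 with limma-trend (against 1), 0 lower with no filter, 1 with the mean of probes and 0 with the pairs as a block (against 2), and 4 higher and 13 lower with array weights. Over all genes, 1869 were called with the pairs as a block and 15181 with array weights, against 3147. In the other interferon lists, 14 rose and 7 fell, against 34 and 33 with array weights, 4 lower with the mean of probes and 2 lower with the block. Leaving out 1 sample gave 21 to 11136 genes in all, 0 to 3 higher and 0 to 6 lower among the 31, and 1 to 30 higher and 0 to 24 lower in the other lists. Over all genes the fewest came without tumor 3, at 21, and the most without normal 3, at 11136, and the cause was not tested. The block changed no other call among the 31. Centring each array moved the median over all genes to 0.02, against 0.15, and the share of called genes that were higher to 34.7%, against 48.1%. The sample identity behind the scanner files, the 4 arrays per group and the probes near background limit these results.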

Other observations

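The family of interferon-induced membrane proteins, singled out after its values were seen, rose in the tumors. Ifitm1 had values of 15.45, 15.58, 15.34 and 14.55 in tumors, against 11.08, 10.08, 13.98 and 9.43 in normal colon, a difference of 4.09 ± 0.92 (SE, adjusted p = 0.0300 by limma). Ifitm3 had 16.74 to 17.34 in tumors and 13.39 to 16.21 in normals, a difference of 2.73 ± 0.60 (adjusted p = 0.0280). In both genes normal 3 was the highest normal, whereas it was the lowest normal in 26 of the 31 genes. Each call was lost on leaving out any sample other than normal 3, with adjusted p up to 0.0883 and 0.0864.

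The Oas1 copies outside the 31 genes were also on the lower side. Oas1e differed by -0.96 ± 0.21 (SE, adjusted p = 0.0283 by limma), a call that was lost with the pairs as a block (adjusted p = 0.0675). Oas1d also passed (adjusted p = 0.0333), but tumors 2 and 3, at 5.46 and 5.40, lay under the detection limit, so the size of its difference is not given. Each of these calls was lost on leaving out any sample other than tumor 4 or normal 3. Oas1c and Oas1f differed by -0.49 and -0.45 and did not pass. With Oas1a, Oas1b and Oas1g, all 7 fitted copies had a negative difference, and shared signal between copies was not tested. By level, the 5 interferon-stimulated genes with a mean log2 value under 8 had a median difference of -0.86, against 0.53 over all genes of that band. The 4 genes between 8 and 10 had 0.65 against 0.32, the 12 between 10 and 12 had 0.03 against 0.05, and the 10 above 12 had 0.03 against 0.03.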
